A study of Arabidopsis thaliana with 12 samples.

Results

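The difference between the auxin responses of er erl2 and wild-type Arabidopsis thaliana seedlings was examined gene by gene and family by family. For each gene it was the log2 change with auxin in er erl2 minus the log2 change with auxin in wild type, called the interaction here. All 12 of the 12 libraries entered it, 3 in each of 4 groups. Wild type was the accession Col-0, and the double mutant carried er-105 and erl2-1, alleles of the receptor kinase genes ER (ERECTA) and ERL2. Whole seedlings were sampled 3 days after germination, grown on MS medium and moved to liquid MS for 30 min. They then received the natural auxin indole-3-acetic acid (IAA) at 1 uM in 0.02% DMSO, or 0.02% DMSO alone as mock, for 30 min. Each genotype is a single line, and the labels do not say whether the 3 libraries of a group came from separate cultures, so p-values measure the spread between these samples. In RNA from whole seedlings, fewer cells of a type and less RNA per cell cannot be told apart.

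Auxin binds TIR1/AFB receptors together with Aux/IAA repressors. The repressors are then degraded, and auxin response factors are free to act on their targets. Among the fastest targets are the Aux/IAA genes themselves, the GH3 enzymes that conjugate auxin to amino acids, the ACC synthases of ethylene synthesis and the SAUR genes. SAUR proteins (small auxin up RNA) are short and unstable. Those of the SAUR19 subfamily are known to inhibit PP2C phosphatases, which leaves the plasma membrane proton pump active and promotes cell expansion. ER, ERL1 and ERL2 bind secreted EPF and EPFL peptides and are known for stem growth, inflorescence form and stomatal patterning.

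The family with the clearest pattern was SAUR. Of its 28 auxin-induced members 27 had a smaller estimate of the change with IAA in er erl2, and most of them were already higher there without IAA. A few auxin-induced genes of auxin and ethylene metabolism and of auxin transport showed the opposite, a larger fold in er erl2 from a lower mock level. In several of these, wild-type mock replicate 3 was the highest library of its group. None of the 21376 genes tested passed an adjusted p of 0.05 for the interaction in edgeR (0 genes, 0%), and the smallest adjusted p was 0.198. The members below are therefore described by their values, by counts at an unadjusted p under 0.05, and by the median over each family. At an unadjusted p under 0.05, 1279 genes (5.98%) were found, 601 with a weaker or more negative response in er erl2 (2.81%) and 678 with a stronger or more positive one (3.17%). The DESeq2 Wald test called 15 genes (0.0702%), 9 negative (0.0421%) and 6 positive (0.0281%). Of these 15, 7 were SAUR genes, and all 7 were negative.

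The libraries held 28930625 to 35837999 counts. ER lay between 53.1 and 63.6 CPM (counts scaled to a common library size) in the 6 wild-type libraries and between 4.92 and 8.57 CPM in the 6 er erl2 libraries. ERL2 lay between 9.07 and 13.2 CPM in wild type and between 2.42 and 3.93 CPM in er erl2, and ERL1 was called higher in the mutant under both treatments. The tested markers of shoot (4 of 4) and root (7 of 7) were detected in whole seedlings, with a mean level of 10.1 to 10.5 log2 CPM for shoot and 2.79 to 3.56 log2 CPM for root over all libraries. Rapid stress and touch genes varied within groups, as given for their list below.

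The SAUR genes at issue sit in 3 tandem arrays, SAUR19 to SAUR24 on chromosome 5, SAUR26 to SAUR29 on chromosome 3 and SAUR61 to SAUR68 on chromosome 1. The sequence of 250 bases before the annotated gene start is printed for a member of each of 2 arrays, for SAUR15, which lies outside the arrays, and for BRU6, a GH3 gene with the opposite pattern. The sequences are from RefSeq, assembly TAIR10.1, and are given in the direction of transcription. Capitals mark TGTCTC, the classical auxin response element, and its variant TGTCGG, the G-box CACGTG and the related word CACATG, on either strand. The reverse complements CATGTG and, for the auxin element, GAGACA are therefore also in capitals. SAUR26 is shown at chr3:982807-983056 on the plus strand, AT1G29460 (also called SAUR65) at chr1:10308247-10308496 on the minus strand, SAUR15 at chr4:18125807-18126056 on the plus strand and BRU6 at chr4:17579368-17579617 on the plus strand.
SAUR26: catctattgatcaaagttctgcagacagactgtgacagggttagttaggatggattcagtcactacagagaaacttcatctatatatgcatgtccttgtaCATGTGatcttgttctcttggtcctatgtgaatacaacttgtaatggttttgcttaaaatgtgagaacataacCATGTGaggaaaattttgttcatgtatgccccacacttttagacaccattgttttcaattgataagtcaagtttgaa
AT1G29460: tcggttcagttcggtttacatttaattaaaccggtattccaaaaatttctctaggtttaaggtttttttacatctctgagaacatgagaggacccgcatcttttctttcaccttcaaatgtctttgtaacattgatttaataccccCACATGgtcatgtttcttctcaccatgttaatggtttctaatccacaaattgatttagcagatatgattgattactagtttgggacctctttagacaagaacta
SAUR15: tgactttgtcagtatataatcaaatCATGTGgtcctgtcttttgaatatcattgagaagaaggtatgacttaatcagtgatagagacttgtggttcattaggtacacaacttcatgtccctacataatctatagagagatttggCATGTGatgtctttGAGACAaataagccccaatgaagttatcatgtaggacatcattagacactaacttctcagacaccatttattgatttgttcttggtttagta
BRU6: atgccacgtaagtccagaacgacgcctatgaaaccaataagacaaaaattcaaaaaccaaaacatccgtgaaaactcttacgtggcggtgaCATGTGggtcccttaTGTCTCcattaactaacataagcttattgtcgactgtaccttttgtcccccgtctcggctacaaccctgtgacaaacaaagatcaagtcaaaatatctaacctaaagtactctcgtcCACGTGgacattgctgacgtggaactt

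Within 250 bases, TGTCTC was present before 5 of the 18 array genes (27.8%), against 10.7% of the 20484 protein-coding genes tested and 9 of 28 Aux/IAA genes (32.1%). Over all 65 tested SAUR genes it was present before 7 (10.8%), near the share of all genes. Among IAA-induced genes the share was 18.9%. TGTCGG was present before 2 of the 18 (11.1%), against 4.60% of all. CACGTG was present before 0 of the 18, against 7.28% of all. CACATG was added to the search after these sequences were read. It was present before 15 of the 18 array genes (83.3%), 26 of the 65 tested SAUR genes (40.0%), 6 of 28 Aux/IAA genes (21.4%), 4 of 13 GH3 genes (30.8%) and 11.3% of all. Array members arose by duplication and share upstream sequence, so they are not independent observations of a motif. A match describes letters in the window and not a bound site. No 2 of these motifs overlap in the sequences printed.

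In the SAUR19 to SAUR24 array all 6 members were tested, all 6 rose with IAA in both genotypes, and all 6 had a negative interaction at an unadjusted p under 0.05. The median log2 change with IAA was 2.50 in wild type against 1.49 in er erl2, and the median interaction was -1.08, beside -0.003 over all genes tested. IAA changed 1.21% of all genes in wild type (1.06% higher, 0.154% lower) and 1.53% in er erl2 (1.29% higher, 0.243% lower). Under mock 5 of the 6 were higher in er erl2 and 1 was lower, where 15.7% of all genes were called (8.40% higher, 7.33% lower).

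SAUR19 (AT5G18010) had the smallest interaction p of all genes. Its level was 1.72, 1.15 and 1.35 CPM in wild-type mock and 9.02, 7.34 and 8.0 CPM with IAA. In er erl2 it was 4.61, 5.24 and 4.81 CPM under mock and 11.2, 12.2 and 10.8 CPM with IAA. All er erl2 libraries lay above all wild-type libraries of the same treatment, and the gap on the log2 scale was wider under mock. The rise in CPM was similar in both genotypes, and the difference was in the fold. The change with IAA was 5.75-fold in wild type and 2.34-fold in er erl2, and the log2 interaction was -1.30 (SE 0.198; edgeR p of 1.17e-05, adjusted p of 0.198; DESeq2 adjusted p of 0.000256).

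SAUR23 (AT5G18060) differed in shape. It lay at 3.21, 2.09 and 2.26 CPM in wild-type mock and at 15.2, 12.1 and 15.3 CPM in wild-type IAA. In er erl2 it lay at 5.07, 5.04 and 4.04 CPM under mock and at 11.9, 11.5 and 12.9 CPM with IAA. The genotypes did not overlap under mock, where er erl2 was higher, and they overlapped under IAA. The log2 interaction was -1.12 (SE 0.217; edgeR p of 0.000128, adjusted p of 0.342). SAUR22 (-1.14, SE 0.327) had the same form. SAUR24 (-1.03, SE 0.267) had the reverse in the overlap of its libraries, though not in the adjusted edgeR test. Its genotypes overlapped under mock (1.86 to 4.22 CPM in wild type, 4.12 to 5.10 CPM in er erl2) and were apart under IAA (17.6 to 19.5 CPM and 13.9 to 15 CPM), where er erl2 was lower. By that test SAUR24 was called higher in er erl2 under mock (0.66 on the log2 scale, adjusted p of 0.0452). It was not called lower under IAA.

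SAUR20 (AT5G18020) stood apart from its neighbours in level. It was at 3.41, 3.11 and 3.99 CPM in wild-type mock, 12.3, 13.4 and 14.0 CPM in wild-type IAA, 1.64, 2.40 and 1.55 CPM in er erl2 mock and 4.82, 4.02 and 3.81 CPM in er erl2 IAA. The er erl2 libraries were below the wild-type libraries in both treatments. The genotype difference was -0.92 on the log2 scale under mock and -1.65 under IAA, and both passed the adjusted edgeR test. Its interaction of -0.73 (SE 0.234) was thus of the same sign as that of SAUR19 while its mock difference had the opposite sign. AT5G18030, which also carries the name SAUR21, had an interaction of -0.56 (SE 0.257; edgeR p of 0.049, adjusted p of 0.806). It was -0.32 without wild-type mock replicate 2, and no longer at an unadjusted p under 0.05.

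The 6 genes are near copies of each other, with 87.7% to 95.2% identity between the coding sequences of the 15 pairs, so reads may be shared or lost among them. The coding sequence has 273 bases in SAUR19, SAUR22, SAUR23 and SAUR24, 276 in SAUR20 and 267 in AT5G18030, so the copies also differ in length. A stretch of it (bases 121 to 180, RefSeq, TAIR10.1) was compared only among the copies of 273 bases, without SAUR20 and AT5G18030. These copies differ there at scattered bases, and capitals mark a base that differs from SAUR19.
SAUR19: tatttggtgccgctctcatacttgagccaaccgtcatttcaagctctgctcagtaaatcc
SAUR22: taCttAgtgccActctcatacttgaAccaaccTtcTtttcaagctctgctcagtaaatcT
SAUR23: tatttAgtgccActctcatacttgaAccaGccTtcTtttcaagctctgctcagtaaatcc
SAUR24: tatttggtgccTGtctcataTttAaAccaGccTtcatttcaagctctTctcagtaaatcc
The array also lies 10 protein-coding genes from DAR4 and 11 from CSA1, immune receptor genes with 0 counts in all 6 er erl2 libraries and at least 491 counts in every wild-type library. Other genes of this stretch were also called for genotype under mock. AT5G17900 (-1.3 on the log2 scale), PSRP6 (-0.92) and CAX7 (-0.86), close to CSA1 and DAR4, were lower in er erl2. DRT101, which lies inside the array, was higher (0.51). AT5G17820 (-0.53), on the far side of CSA1, was also lower. Between DAR4 and the array, AT5G17900 and AT5G17910 (-0.2, adjusted edgeR p of 0.0474) were called lower. The other tested genes there, ATMS1, AT5G17930, AT5G17980 and TRP1, were not called. Whether the mutant carries a different sequence of the array was not tested. Summing the 6 genes does not depend on how reads were split among them. The sum was 17.5, 11.2 and 16.9 CPM in wild-type mock and 87.5, 76.3 and 85.2 CPM in wild-type IAA. It was 25.5, 27.0 and 21.3 CPM in er erl2 mock and 70.7, 70.7 and 71.0 CPM in er erl2 IAA. The summed level was thus higher in every er erl2 mock library than in any wild-type mock library. With IAA the sum was lower in every er erl2 library than in any wild-type library. The fold of the mean sums was 5.45 in wild type against 2.88 in er erl2, a log2 difference of -0.92. The lower sum with IAA does not describe each member, because it includes the large deficit of SAUR20. Of the 6 genes, 1 was called lower (SAUR20) and 1 higher in er erl2 under IAA. The sum without SAUR20 was not tested.

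**Figure D1:**
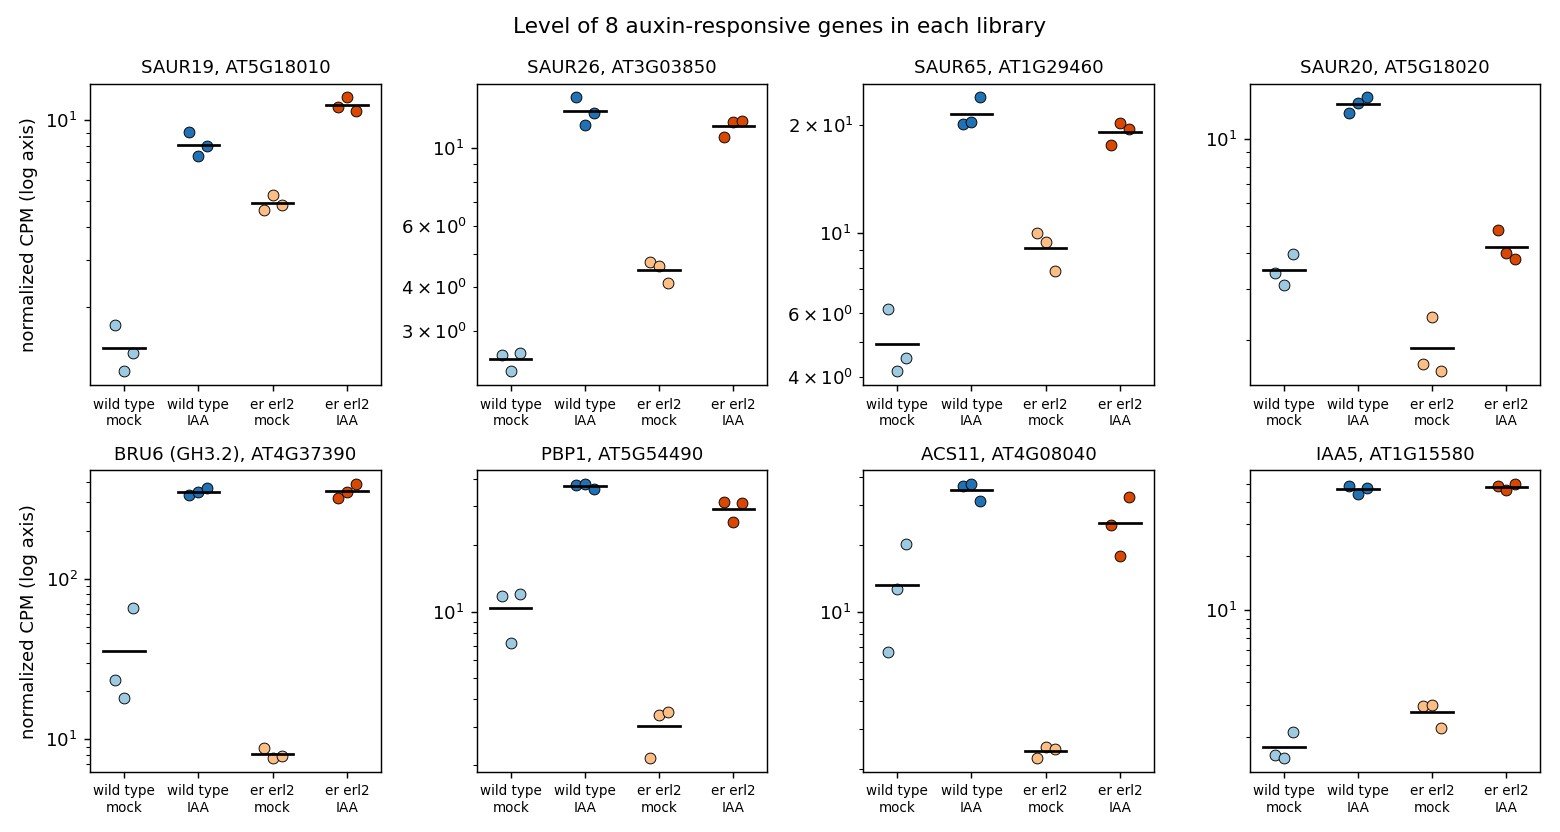
Normalized level in CPM (log axis) of 8 auxin-responsive genes in each of the 12 libraries. Points are libraries, 3 in each group, and lines are group means. SAUR19, SAUR26 and SAUR65 (AT1G29460) start higher in er erl2 mock, SAUR20 is lower in er erl2 in both treatments, and BRU6, PBP1 and ACS11 start lower in er erl2 mock.

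The SAUR26 to SAUR29 array, on another chromosome, gave a similar picture with less similar copies (78.5% to 86.3% coding identity over 6 pairs). All 4 members rose with IAA in both genotypes, all 4 interactions were negative and 3 had an unadjusted p under 0.05. The median log2 change with IAA was 2.31 in wild type against 1.43 in er erl2, with a median interaction of -0.82. SAUR26 (AT3G03850) was at 2.56, 2.30 and 2.60 CPM in wild-type mock and at 14.0, 11.7 and 12.6 CPM in wild-type IAA. The er erl2 levels were 4.73, 4.60 and 4.12 CPM under mock and at 10.8, 11.9 and 12 CPM with IAA. The genotypes were apart under mock and overlapped under IAA. Its fold with IAA was 5.13 in wild type against 2.58 in er erl2, and the interaction was -0.99 (SE 0.158; edgeR p of 1.86e-05, adjusted p of 0.198; DESeq2 adjusted p of 0.0024).

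SAUR29 (AT3G03820) had an interaction of -0.87 (SE 0.162; edgeR adjusted p of 0.342), SAUR27 of -0.78 (SE 0.177) and SAUR28 of -0.64 (SE 0.300; unadjusted p of 0.0514). SAUR29 and SAUR27 were called higher in er erl2 under mock, by 0.74 and 0.48 on the log2 scale, and SAUR28 was not called (0.36). Under IAA 0 of the 4 members differed between the genotypes in the adjusted edgeR test, with a median difference of -0.21 and only SAUR27 at an unadjusted p under 0.05 (0.0192). Under IAA 14.0% of all genes tested were called for genotype (7.14% higher, 6.84% lower).

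The SAUR61 to SAUR68 array on chromosome 1, which includes SAUR63, known to promote organ elongation, was the most diverse (49.3% to 89.8% coding identity over 28 pairs). All 8 members were tested, 7 rose with IAA in both genotypes, and all 8 interactions were negative, 6 of them at an unadjusted p under 0.05. The median interaction was -0.71, from medians of 1.69 in wild type and 0.96 in er erl2. AT1G29460, whose upstream sequence is printed above, was at 6.16, 4.15 and 4.53 CPM in wild-type mock and 20.1, 20.3 and 23.8 CPM in wild-type IAA. The er erl2 libraries had 10, 9.44 and 7.88 CPM under mock and 17.6, 20.2 and 19.4 CPM with IAA. Again the genotypes were apart under mock, with er erl2 higher, and overlapped under IAA. The fold with IAA was 4.31 in wild type against 2.09 in er erl2, and the interaction was -1.04 (SE 0.190; edgeR p of 7.4e-05, adjusted p of 0.342; DESeq2 adjusted p of 0.00205).

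The most abundant member of this array was AT1G29430 (SAUR62), at 18.3 to 28.4 CPM in wild-type mock and 37.9 to 42.7 CPM in er erl2 mock. With IAA it reached 54.7 to 64.5 CPM in wild type and 57.6 to 65.3 CPM in er erl2, and its interaction was -0.74 (SE 0.176). AT1G29490 was the exception in mock level. It lay at 1.96 to 5.25 CPM in wild-type mock and 1.99 to 2.94 CPM in er erl2 mock, with an interaction of -0.41 (SE 0.403; unadjusted edgeR p of 0.333). AT1G29420 was below 1 CPM in all 12 libraries and was not called for IAA. SAUR63 and AT1G29450 overlap AT1G29435, and AT1G29420 overlaps the noncoding AT1G06257, on the opposite strand in each case, so their counts are uncertain.

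Over the 18 array genes, all 18 interactions were negative and 15 had an unadjusted p under 0.05, where 50.6% of all genes had a negative and 49.4% a positive estimate. The interactions ran from -1.30 to -0.41 with a median of -0.81. The 18 genes are related copies in 3 arrays, measured in the same libraries, and are not 18 independent observations. Counts over the SAUR family include them. Under mock 13 were called higher in er erl2 and 1 lower, with a median difference of 0.74 on the log2 scale. Under IAA 1 was called higher and 2 lower, with a median difference of -0.20. The 3 wild-type mock libraries contribute to both the mock difference and the interaction, so these are not separate lines of evidence. Among those 3 libraries, replicate 2 had the lowest mean level in each array, for example 0.86 log2 CPM for the SAUR19 to SAUR24 array against 1.54 and 1.41 log2 CPM. The 3 er erl2 mock libraries had 2.02, 2.12 and 1.77 log2 CPM for that array and lay above all 3. Without any 1 library, 13 to 17 of the 18 had a negative interaction at an unadjusted p under 0.05.

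**Figure D2:**
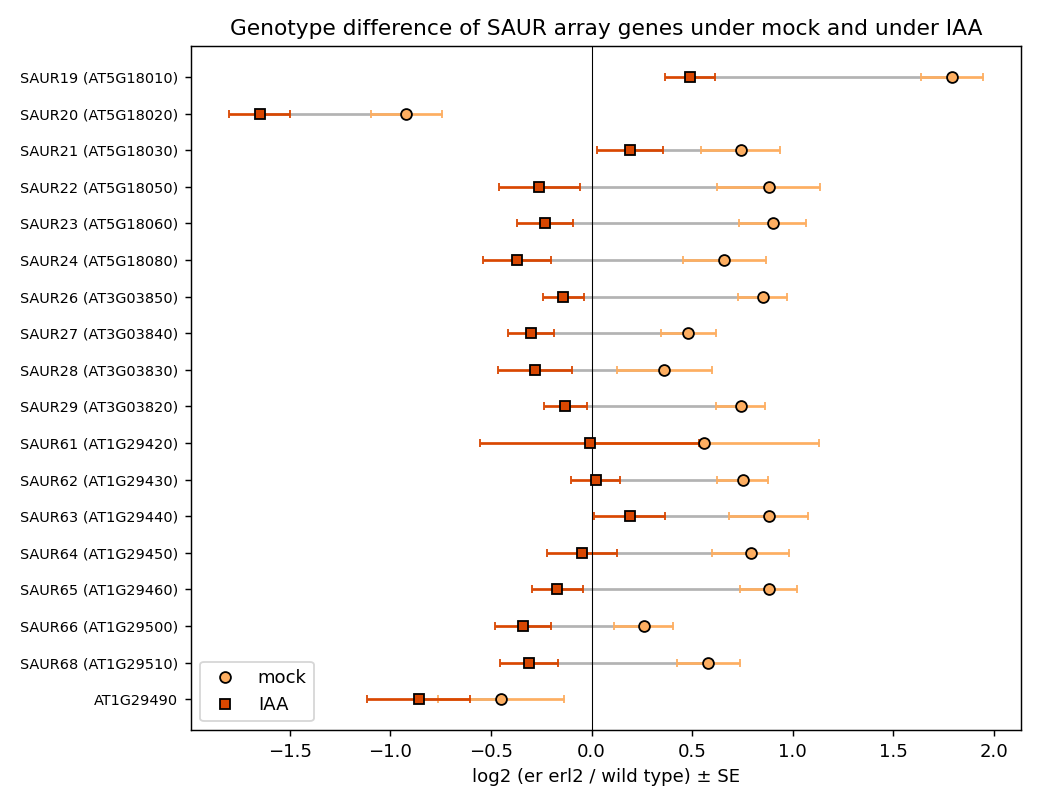
Difference between er erl2 and wild type (log2, with its SE as bars) for the 18 SAUR array genes, under mock (circles) and under IAA (squares). In all 18 the square lies to the left of the circle. Under mock 16 circles lie above 0, and under IAA 14 squares lie below 0.

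Outside the arrays 47 of 62 SAUR genes passed the count filter, and they were mixed. Their median interaction was -0.12, with 6 negative (12.8%) and 3 positive (6.38%) at an unadjusted p under 0.05. The 3 of smallest p were AT4G34760, AT4G38840 and SAUR15, all on chromosome 4, the last 2 as neighbours. AT4G34760 (SAUR50) was at 14.0, 10.4 and 12.1 CPM in wild-type mock and 31.3, 26.6 and 31.1 CPM in wild-type IAA. The levels in er erl2 were 18.1, 21.4 and 18.9 CPM under mock and 28, 29 and 26.6 CPM with IAA. Its interaction was -0.77 (SE 0.147; edgeR adjusted p of 0.342; DESeq2 adjusted p of 0.00866), again with groups that were apart under mock and overlapped under IAA.

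AT4G38840 (SAUR14) had an interaction of -0.65 (SE 0.131), with 15.3 to 19.1 CPM in wild-type mock and 27.3 to 31.5 CPM in er erl2 mock. SAUR15, its neighbour on the other strand, named after its values were seen, had an interaction of -0.87 (SE 0.193). It was at 2.74 to 4.09 CPM in wild-type mock, 18.1 to 23.8 CPM in wild-type IAA, 5.34 to 5.84 CPM in er erl2 mock and 16.4 to 19.2 CPM in er erl2 IAA. AT4G34770, next to SAUR50 and also named after its values were seen, did not start higher in er erl2. It lay at 17.1 to 19.5 CPM in wild-type mock and 15.9 to 18.4 CPM in er erl2 mock, against 25.4 to 33.9 and 19.2 to 23.0 CPM with IAA. Its interaction was -0.43 (SE 0.152).

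A SAUR gene went the other way. AT4G22620 (SAUR34), named after its values were seen, rose with IAA by 2.04 in wild type and by 3.09 in er erl2 on the log2 scale. It was at 0.876, 0.540 and 1.15 CPM in wild-type mock and at 0.247, 0.200 and 0.249 CPM in er erl2 mock. Its interaction was 1.04 (SE 0.402; unadjusted edgeR p of 0.0209). Over the whole SAUR family, 65 of 80 listed genes were tested, 27 rose with IAA in wild type and 25 in er erl2. Of the 65, 21 had a negative interaction (32.3%) and 3 a positive one (4.62%) at an unadjusted p under 0.05. Under mock 22 were called higher in er erl2 and 4 lower, and under IAA 3 higher and 7 lower.

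The other early auxin families did not move as a block. Of the 29 Aux/IAA genes 28 were tested, 14 rose with IAA in wild type and 15 in er erl2, all 14 among the 15. Their median interaction was 0.08, with 3 negative (10.7%) and 3 positive (10.7%) at an unadjusted p under 0.05. IAA10 (AT1G04100) had the smallest p among them. It was at 7.36, 7.36 and 8.11 CPM in wild-type mock and at 8.57, 8.92 and 7.83 CPM in wild-type IAA. In er erl2 it was at 6.43, 6.27 and 4.98 CPM under mock and at 10.5, 9.05 and 10.8 CPM with IAA. IAA10 thus rose with IAA in er erl2 (0.78 on the log2 scale, adjusted edgeR p of 0.00189), its wild-type estimate was 0.15 (adjusted p of 0.721), and the interaction was 0.63 (SE 0.168; adjusted p of 0.806). It overlaps AT1G04105 on the other strand.

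IAA5 (AT1G15580) started higher in er erl2, at 2.94, 3.00 and 2.24 CPM against 1.59, 1.52 and 2.13 CPM in wild-type mock. With IAA it reached 44.2 to 49.2 CPM in wild type and 46.4 to 50.1 CPM in er erl2, so that the fold was 26.9 and 17.9. It overlaps AT1G15570 in the annotation, so its counts are uncertain. IAA29, a repressor also known as a target of PIF factors, had a spread wild-type mock group (12.4, 4.36 and 9.06 CPM), 15.6 to 16.0 CPM in er erl2 mock and an interaction of -0.94 (SE 0.385). IAA30 (0.64, SE 0.203) and IAA13 (0.30, SE 0.126) had a positive estimate. IAA6 had the largest estimate of the list (1.02, and 0.55 to 1.53 with libraries left out), and IAA20 was at 0.72 (0.49 to 1.21). Neither IAA6 nor IAA20 was past an unadjusted edgeR p of 0.05. IAA19 (0.50, SE 0.247) was not past an unadjusted p of 0.05. IAA1 (-0.22), IAA2 (0.12), SHY2 (also called IAA3, 0.00), ATAUX2-11 (also called IAA4, -0.20), IAA9 (0.04), IAA11 (0.08) and IAA12 (0.16) rose in both genotypes with interactions within 1.5 of their SE.

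**Figure D3:**
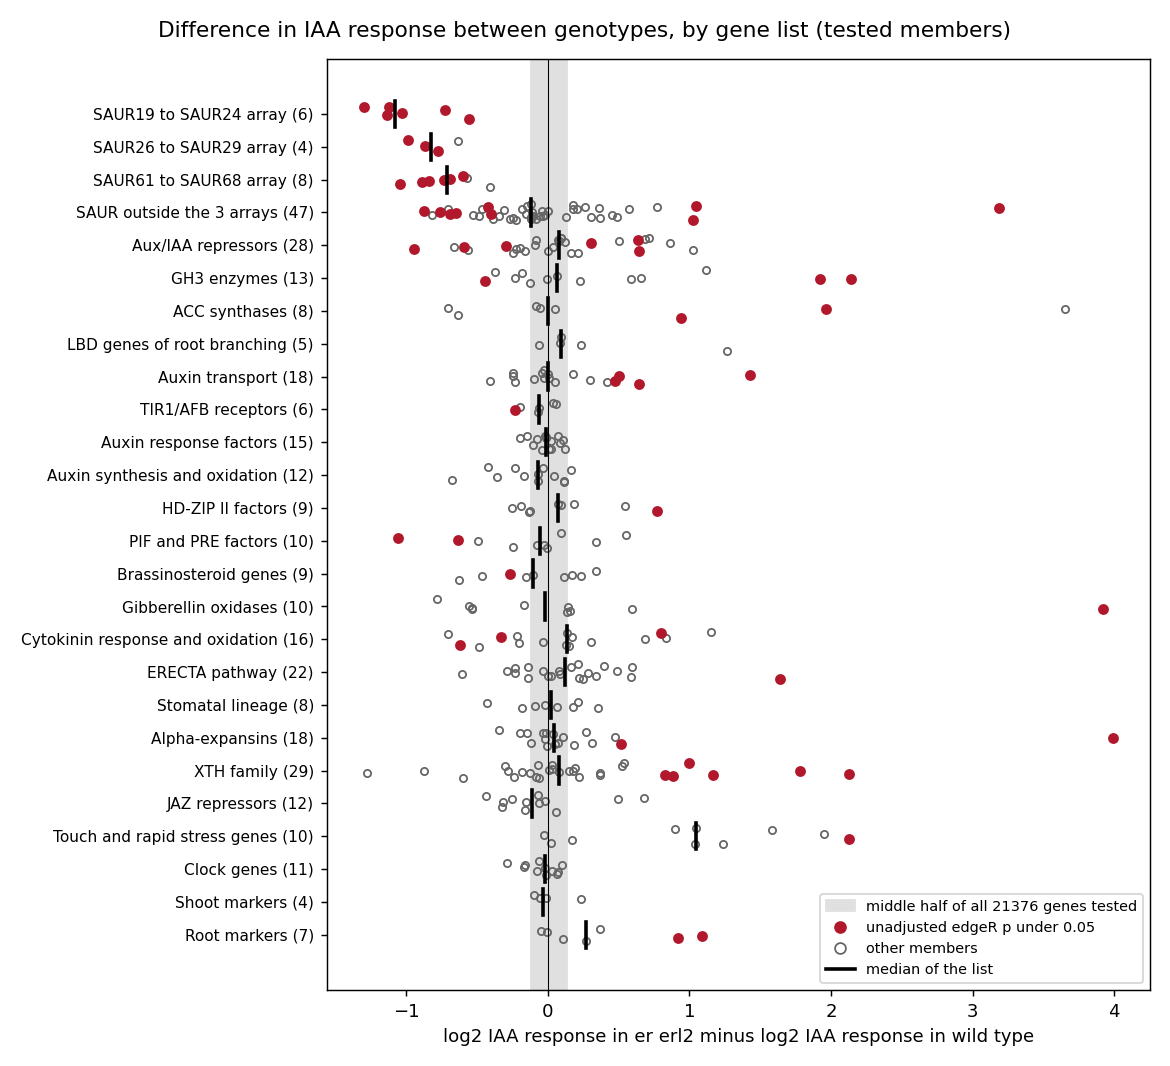
The log2 interaction of every tested member of each gene list, with the number tested in brackets. Filled points have an unadjusted edgeR p under 0.05, bars mark the median of each list, and the grey band holds the middle of all 21376 genes (25th to 75th percentile). All members of the 3 SAUR arrays lie to the left of the band, and most other lists have medians inside it.

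Among the GH3 enzymes 13 of 19 were tested, with a median interaction of 0.07. Of these, 2 were positive (15.4%) and 1 negative (7.69%) at an unadjusted p under 0.05. BRU6 (AT4G37390, also called GH3.2) was at 23.6, 18.2 and 65.5 CPM in wild-type mock and at 8.87, 7.64 and 7.91 CPM in er erl2 mock. With IAA it reached 332, 349 and 370 CPM in wild type and 319, 349 and 390 CPM in er erl2. The er erl2 mock libraries lay below all wild-type mock libraries, of which replicate 3 was far above the other two, and the IAA groups overlapped. The fold was 9.81 in wild type against 43.3 in er erl2, and the interaction was 2.14 (SE 0.580; edgeR p of 0.00532, adjusted p of 0.806). Without wild-type mock replicate 3 the interaction was 1.37 and its adjusted edgeR p was 0.0115.

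GH3.3 was likewise lower in er erl2 mock, with 65.3, 50.0 and 214 CPM in wild-type mock, 604 to 619 CPM in wild-type IAA, 21.7 to 34.6 CPM in er erl2 mock and 507 to 591 CPM in er erl2 IAA. Its interaction was 1.92 (SE 0.686; unadjusted edgeR p of 0.0214). Wild-type mock replicate 3 was the highest of its group, and without it the interaction was 1.00, still at an unadjusted p under 0.05. The IAA groups did not overlap, with er erl2 lower, though this difference was not past the adjusted edgeR test (-0.15, adjusted p of 0.873). WES1 (GH3.5, 0.66, SE 0.317) and GH3.1 (0.59, SE 0.384) were not past an unadjusted p of 0.05, and DFL1 (GH3.6) had an interaction of -0.01 (SE 0.142). GH3.17, which IAA did not change in either genotype in the adjusted edgeR test and which is named after its values were seen, was the negative member (-0.44, SE 0.180).

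Among the ACC synthases 8 of 9 were tested, and 2 had a positive interaction at an unadjusted p under 0.05. ACS11 (AT4G08040) was at 6.62, 12.6 and 20.2 CPM in wild-type mock and at 2.23, 2.50 and 2.46 CPM in er erl2 mock. With IAA it was at 36.3, 37.2 and 31.2 CPM in wild type and at 24.4, 17.7 and 32.5 CPM in er erl2. The mock groups did not overlap, the wild-type one spanning a wide range. The interaction was 1.96 (SE 0.534; edgeR adjusted p of 0.806). ACS6, a gene also known to respond to stress, was at 9.02, 19.9 and 17.7 CPM in wild-type mock and 6.30 to 8.87 CPM in er erl2 mock, with 33.5 to 44.7 CPM over the 6 IAA libraries and an interaction of 0.94 (SE 0.351). ACS4 had an estimate of the other sign (-0.63, SE 0.481). ACS9 had 0 counts in all er erl2 mock libraries and at most 0.169 CPM in wild-type mock, and its fitted interaction is therefore not given.

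**Figure D4:**
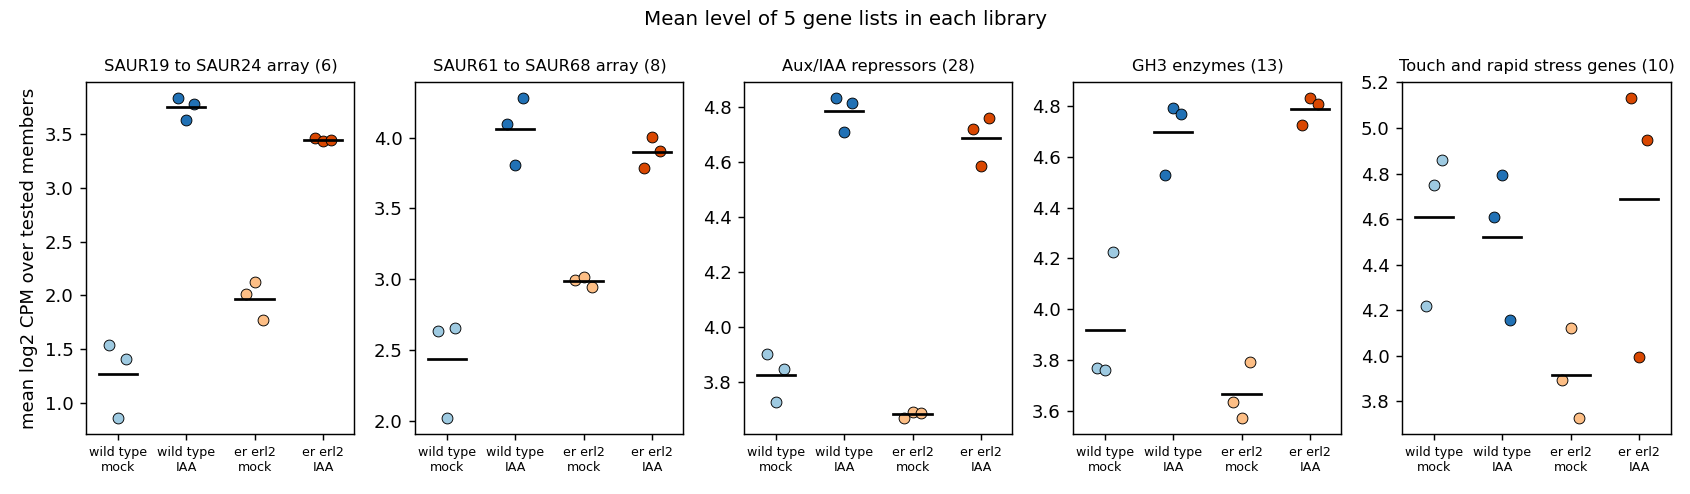
Mean log2 CPM over the tested members of 5 gene lists in each library, with the number of members in brackets. Points are libraries and lines are group means. The SAUR arrays start higher in er erl2 mock than in wild-type mock, the GH3 mean is raised in wild-type mock replicate 3 (4.23), and the touch and stress list varies within groups.

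For auxin transport and its regulators 18 of 19 genes were tested, with 4 positive (22.2%) and 0 negative interactions at an unadjusted p under 0.05. The median interaction was 0.004. PBP1 (AT5G54490), a calcium-binding protein known to bind the kinase PINOID, had the smallest p. It was at 11.8, 7.19 and 12 CPM in wild-type mock and at 37.7, 37.9 and 36 CPM in wild-type IAA. The er erl2 libraries stood at 2.16, 3.4 and 3.51 CPM under mock and at 31.3, 25.5 and 31.0 CPM with IAA. Its levels in er erl2 were below those in wild type in both treatments without overlap. The gap was wider under mock on the log2 scale but not in CPM. The fold was 3.6 in wild type against 9.65 in er erl2, and the interaction was 1.42 (SE 0.275; edgeR adjusted p of 0.505; DESeq2 adjusted p of 0.000457). Its annotated start overlaps the noncoding AT5G08205 on the other strand.

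LAX2, an auxin influx carrier, was at 20.4 to 23.4 CPM in wild-type mock, 22.4 to 27.2 CPM in wild-type IAA, 16.7 to 18.4 CPM in er erl2 mock and 26.9 to 30.1 CPM in er erl2 IAA. It rose with IAA in er erl2 (0.70 on the log2 scale, adjusted edgeR p of 0.00025) and had an estimate of 0.21 in wild type (adjusted p of 0.434), with an interaction of 0.50 (SE 0.119; adjusted p of 0.806). The kinase gene WAG1 (0.64, SE 0.284), named after its values were seen, was also positive.

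The parts of the pathway that perceive auxin showed small interactions. The 6 TIR1/AFB receptor genes had interactions between -0.23 and 0.06, and TIR1 itself was at -0.23 (SE 0.0899; unadjusted edgeR p of 0.0221). The 15 auxin response factor genes lay between -0.20 and 0.12, with 0 at an unadjusted p under 0.05, of which ARF6 had the smallest p (-0.20, SE 0.125). Genes of auxin synthesis and oxidation (12 of 16 tested) had a median of -0.07, with 0 at an unadjusted p under 0.05 and YUC2 at -0.68 (SE 0.373). The 5 LBD genes of root branching had 0 as well. LBD29 among them reached 29.2 to 29.7 CPM with IAA in wild type and 32.5 to 49.5 CPM in er erl2, from 0.519 to 1.76 and 0.359 to 0.804 CPM under mock.

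Growth and hormone lists linked to auxin differed little in their medians. Of 9 HD-ZIP II genes, HB-2 (AT4G16780), a shade-response factor, was at 6.62 to 7.70 CPM in wild-type mock, 7.83 to 9.58 CPM in wild-type IAA, 6.03 to 6.36 CPM in er erl2 mock and 11.2 to 14.6 CPM in er erl2 IAA. Its genotypes stood apart more under IAA (0.60 on the log2 scale, adjusted edgeR p of 0.00399) than under mock (-0.17, adjusted p of 0.401), with an interaction of 0.77 (SE 0.173; adjusted p of 0.794). Among 10 tested PIF and PRE factors 2 were negative (20%), PIL5 (also called PIF1, -0.64, SE 0.184) and PRE1 (-1.06, SE 0.443), the latter named after its values were seen. The brassinosteroid list (9 genes, median -0.10) had ROT3 as its member of smallest p (-0.27, SE 0.111). In the cytokinin list (16 of 17 tested, median 0.13) this was CKX1 (0.80, SE 0.253), which degrades cytokinin. In the gibberellin oxidases (10 of 12 tested, median -0.02) this was GA20OX3, which had 0 counts in all 3 wild-type IAA libraries and 0.0973 to 0.135 CPM in wild-type mock, too low for a fold.

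For the ERECTA pathway 22 of 24 genes were tested, and 0 were called for IAA in either genotype. Their median interaction was 0.12, and 1 had an unadjusted p under 0.05 (4.55%), CLL2 (also called EPFL4, a peptide of the family that binds ER), which stayed at or below 0.551 CPM in all libraries. The 8 stomatal-lineage genes had a median of 0.02 with 0 at an unadjusted p under 0.05, and AT4G31805 had the smallest p (0.35, SE 0.213). The 12 JAZ genes (median -0.12, smallest p in JAZ12 at -0.16) and the 11 clock genes (median -0.02, smallest p in ELF3 at -0.29) had 0 as well.

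Of 33 XTH genes, which cut and rejoin xyloglucan, 29 were tested and 6 had a positive (20.7%) and 0 a negative interaction at an unadjusted p under 0.05. Their median was 0.08, with 11 of the 29 estimates negative. XTH24 had the smallest p (0.88, SE 0.286). It was at 112, 207 and 143 CPM in wild-type mock, 108, 138 and 139 CPM in wild-type IAA, 79.4, 103 and 92.7 CPM in er erl2 mock and 136, 137 and 149 CPM in er erl2 IAA. The wild-type groups overlapped and the er erl2 groups did not. TCH4, both an XTH and a touch gene, was at 77.7, 148 and 231 CPM in wild-type mock, 73.9, 174 and 66.2 CPM in wild-type IAA, 29.9, 35.1 and 40.5 CPM in er erl2 mock and 148, 42.7 and 127 CPM in er erl2 IAA (interaction 2.13, SE 0.816). Of 25 alpha-expansins, which loosen walls, 18 were tested and 2 were positive (11.1%), EXPA12 and, named after its values were seen, EXPA15 (0.52, SE 0.185). EXPA12 was at 0.649, 1.22 and 3.65 CPM in wild-type mock and 1.63 to 3.34 CPM in wild-type IAA. In er erl2 it was at 0.0309 to 0.10 CPM under mock and 1.01 to 2.68 CPM with IAA. Its interaction was 3.99 (SE 1.12; edgeR p of 0.00468, adjusted p of 0.806; DESeq2 adjusted p of 0.0164), and 3.02 to 4.4 with libraries left out. The er erl2 mock level was near the floor and wild-type mock replicate 3 was the highest of its group, so the size of this interaction is uncertain.

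Of 12 listed touch and rapid stress genes 10 were tested, and 9 of the 10 estimates were positive, with a median of 1.04. The mean over the list was 4.22, 4.75 and 4.86 log2 CPM in wild-type mock and 4.61, 4.79 and 4.16 log2 CPM in wild-type IAA. It was 3.89, 4.12 and 3.73 log2 CPM in er erl2 mock and 5.13, 4.0 and 4.95 log2 CPM in er erl2 IAA. Replicate 2 of er erl2 IAA lay near the er erl2 mock libraries and the other 2 lay above every other library, and 0 of the genes were called for IAA in either genotype. Of the 7 root markers, PLT2 (1.09, SE 0.310) and, named after its values were seen, PLT1 had a positive interaction at an unadjusted p under 0.05. Their list mean was 3.25 to 3.56 log2 CPM in wild-type mock, 2.97 to 3.01 in wild-type IAA, 2.87 to 3.07 in er erl2 mock and 2.79 to 3.08 in er erl2 IAA. The part of either in the positive values of other genes was not tested.

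The named genes outside these lists were few. AT3G62070, of unknown function, was at 1.23, 1.55 and 0.980 CPM in wild-type mock and at 3.56, 3.01 and 3.19 CPM in wild-type IAA. In er erl2 it was at 2.88, 2.7 and 2.60 CPM under mock and at 2.51, 2.75 and 2.99 CPM with IAA. It rose with IAA in wild type (1.37 on the log2 scale) and had an estimate of 0.01 in er erl2, where the groups overlapped, and its interaction was -1.36 (SE 0.252; edgeR adjusted p of 0.342; DESeq2 adjusted p of 0.00866). ALD1, which makes the precursor of the immune signal pipecolic acid, was at 4.15, 2.60 and 8.31 CPM in wild-type mock and 0.498 to 0.867 CPM in er erl2 mock, with an interaction of 2.17 (SE 0.575; DESeq2 adjusted p of 0.0142). FKD1, known for leaf vein pattern, had an interaction of 0.76 (SE 0.197) and AT3G05727 of 0.72 (SE 0.178), both with an adjusted edgeR p of 0.806. FKD1 overlaps AT3G63310 on the other strand.

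Genes were also grouped by their auxin response alone, as those called by edgeR for the mean of the IAA effects of both genotypes (2.65% of all genes; 414 higher, 1.94%; 152 lower, 0.711%). Of the 414 IAA-induced genes 28 were SAUR genes and 386 were not. Among the 386, the median interaction was 0.11, and 52 were positive (13.5%) and 25 negative (6.48%) at an unadjusted p under 0.05. Their median genotype difference was -0.18 on the log2 scale under mock and -0.06 under IAA. The count of positive genes was 42 without wild-type mock replicate 3, in which several of these genes were high, and 40 without er erl2 IAA replicate 3, the lowest of the fits that left out 1 library. The negative count fell to 14 without wild-type mock replicate 2, to 15 without wild-type IAA replicate 3 and to 16 without er erl2 IAA replicate 1. The 152 IAA-lowered genes had a median of 0.01, with 3 positive (1.97%) and 12 negative (7.89%).

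**Figure D5:**
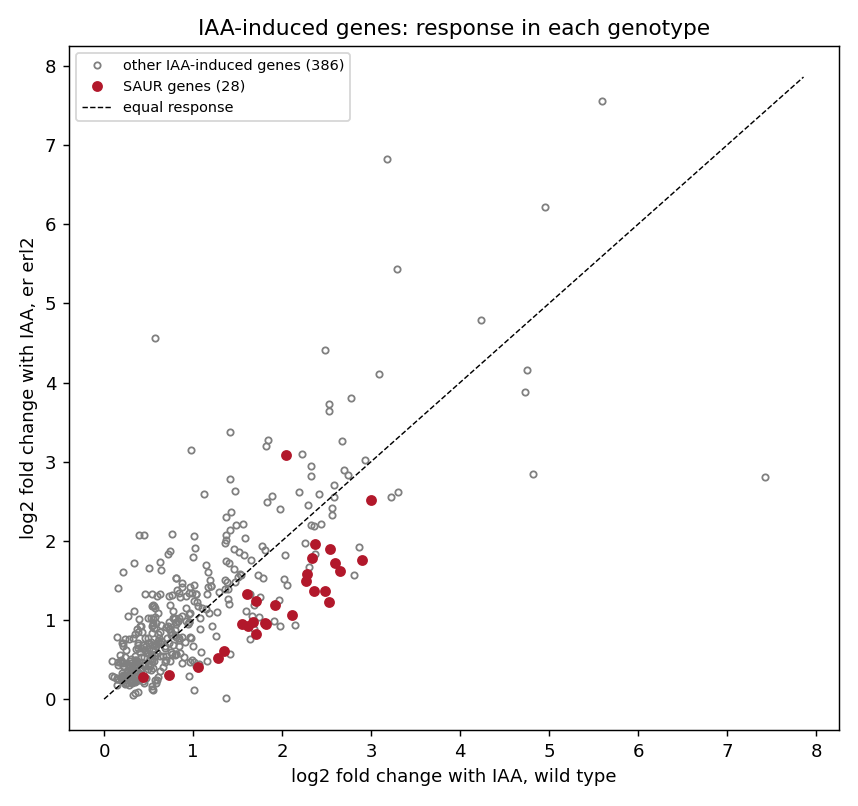
The log2 response to IAA in er erl2 plotted against that in wild type for the 414 IAA-induced genes, with 28 SAUR genes as filled points and 386 other genes as open circles. The dashed line marks an equal response, and 27 of the 28 SAUR genes lie below it.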

How the data were processed

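Per the labels, libraries were directional and made from poly-A RNA. The raw counts of the 12 libraries, whole numbers for each gene, were used as deposited. The submitters' processing notes name bcl2fastq, STAR 2.7.6a, featureCounts 2.0.0 and the build TAIR10. The annotation and the strand setting of counting are not given in the sources used here, so counts of genes that overlap on opposite strands are uncertain. Columns were assigned by sample title, with 0 left unassigned. Of 37336 genes, 37051 matched RefSeq TAIR10.1, which gave names, products, overlaps and sequences.

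The model was fitted with edgeR 4.0.16 (R 4.3.3) to genes passing filterByExpr (minimum count of 10, minimum total of 15), with TMM scaling, 4 group means and robust quasi-likelihood dispersion over all libraries. Benjamini-Hochberg adjustment ran over 21376 genes, and called means an adjusted p under 0.05. The biological coefficient of variation was 0.102. Levels are CPM at the TMM-scaled library size, and log2 CPM uses a prior count of 2. Lists were described by counts and medians, with no set test. The procedure was tested on simulated counts.

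Named genes were the 8 of smallest interaction p in each direction (mean log2 CPM of at least 1), those called by DESeq2, ER, ERL1 and ERL2, the tested member of smallest p in each list, Aux/IAA, GH3 and ACS genes called for IAA, and the SAUR array members. The members and lists were chosen with earlier results of these data known. Same-numbered libraries did not deviate together (correlations from -0.175 to 0.0935 over 18 pairs), so replicate numbers were not treated as pairs. Alternatives were DESeq2 1.42.0, limma-voom (limma 3.58.1), other filters and size factors, replicate blocks, a minimum change of 1 on the log2 scale and leaving out each library. The values of 1 gene of the auxin transport list are not reported here.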

Additional observations from a re-analysis of the deposited data

Results flagged for a closer look

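In 4 of the named genes the IAA libraries did not overlap the mock libraries of the same genotype in either genotype, and the side on which they lay differed between the genotypes. The edgeR quasi-likelihood test of this difference was not past the threshold for any of the 4 after Benjamini-Hochberg adjustment. The DESeq2 Wald test called all 4. All 4 had been named for a small interaction p and a DESeq2 call, so the opposite sides and these calls are not separate evidence. How many of all genes tested show this pattern was not counted. SR1 (AT5G01820, also called CIPK14), a protein kinase gene, was at 23.3, 23.3 and 22.7 CPM in wild-type mock, 30.0, 28 and 28.1 CPM in wild-type IAA, 31.5, 31.1 and 34.6 CPM in er erl2 mock and 28.8, 30.3 and 28.8 CPM in er erl2 IAA. Its log2 interaction was -0.46 (SE 0.0881; edgeR adjusted p 0.342; DESeq2 adjusted p 0.0247).

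AT2G38870, a gene of the potato inhibitor I family of protease inhibitors, was at 59.4, 75 and 66.8 CPM in wild-type mock, 58.4, 53.5 and 55.6 CPM in wild-type IAA, 49.5, 51.4 and 51.1 CPM in er erl2 mock and 61.8, 61.9 and 77.0 CPM in er erl2 IAA. Its interaction was 0.66 (SE 0.130; edgeR adjusted p 0.357; DESeq2 adjusted p 0.0142). AT3G54150, a methyltransferase gene, had an interaction of 1.66 (SE 0.363; edgeR adjusted p 0.805; DESeq2 adjusted p 0.00866), with 4.96 to 5.78 CPM in wild-type mock and 5.96 to 12.1 CPM in er erl2 IAA. DTX1, a MATE efflux carrier gene that overlaps AT2G04039 on the other strand, had an interaction of 1.22 (SE 0.282; edgeR adjusted p 0.806; DESeq2 adjusted p 0.0335), with 8.11 to 13.2 CPM in wild-type mock and 4.51 to 8.11 CPM in er erl2 mock. In both AT3G54150 and DTX1 the IAA libraries lay below the mock libraries in wild type and above them in er erl2.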

How the results depend on the processing

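Processing alternatives gave 152 summary values, and 139 of them lay within 1.5 times the count or 1 SD of the reported one. The DESeq2 Wald test called 15 genes for the interaction, 411 for IAA in wild type and 617 in er erl2. When a change of at least 1 on the log2 scale was also required, 144 and 171 genes were called for IAA, 734 (339 higher, 395 lower) and 643 for genotype under mock and IAA, with 187 interaction genes at an unadjusted p under 0.05. Of the last, 5 were SAUR genes with a negative value, all 5 in the arrays, and among IAA-induced genes outside the family 18 were positive and 6 negative. A mean CPM of at least 1 gave a SAUR family median of -0.38. For these shifts the cause was not tested, apart from the fewer genes each leaves.

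With single libraries left out, interaction calls ranged from 0 to 7, IAA calls from 164 to 337 in wild type and 219 to 561 in er erl2, and genotype calls from 2029 to 3482 under mock and 1946 to 3216 under IAA. Interaction genes at an unadjusted p under 0.05 ranged from 816 to 2241, negative SAUR genes among them from 19 to 23, and IAA-induced genes outside the family from 40 to 72 positive and 14 to 31 negative. Medians ranged from -0.42 to -0.23 for the SAUR family, -1.18 to -0.83 for SAUR19 to SAUR24, -0.93 to -0.76 for SAUR26 to SAUR29, -0.92 to -0.55 for SAUR61 to SAUR68, 0.02 to 0.12 for Aux/IAA and -0.05 to 0.20 for GH3 genes. The 7 calls came without wild-type mock replicate 1, and 4 of them were SAUR genes, all negative (SAUR19, AT1G29460, AT4G34760 and SAUR23). PBP1 was the call without wild-type mock replicate 2 and BRU6 that without replicate 3.

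A replicate block gave 0 interaction calls in edgeR (smallest adjusted p of 0.486), as did a block within each genotype (0.307; it gives no genotype contrast), a block from the column prefixes added after seeing the data (0.407) and limma-voom (0.465). Some interactions near 0 changed sign. ERL2 (0.00) was 0.00 with the stricter filter and the replicate block, 0.01 in limma-voom, 0.02 and 0.04 in the other blocks, and -0.14 to 0.19 with libraries left out. SHY2 (0.00) was -0.01 in limma-voom and the block within genotype, and -0.13 to 0.11 with libraries left out. DFL1 was 0.04 in the prefix block and -0.12 to 0.11 with libraries left out, IAA11 -0.03 to 0.23, IAA9 -0.04 to 0.10 and AT1G29420 -0.99 to 0.24.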

Other observations

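All tested genes were also grouped by their RefSeq product name, which gave 199 families of at least 10 tested members. The SAUR-like family had the largest share with a negative interaction at an unadjusted edgeR p under 0.05, 21 of 63 (33.3%), beside 2.81% of all genes. It was followed by the pectin acetylesterases with 2 of 11 (18.2%) and the cytochrome P450 superfamily with 2 of 16 (12.5%). On the positive side, where the share of all genes was 3.17%, the S-locus lectin protein kinases came first with 5 of 21 (23.8%), then the thaumatin-like pathogenesis-related proteins with 3 of 14 (21.4%). The DNAJ heat shock, SNF7 and SPFH/Band 7 families followed with 2 of 10 each (20%). These families differ from the SAUR genes in their auxin response. The median log2 change with IAA was -0.01 in wild type against 0.20 in er erl2 for the lectin kinases, and 0.43 against 0.40 for the SAUR-like family. Apart from the SAUR-like family each share rests on at most 5 genes, and none of these genes (0) passed the adjusted edgeR test.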
